A study of Mus musculus with 8 samples.

Results

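Disallowed genes are genes that most tissues express and that mature β cells keep low. The 8 examined here were Ldha, Slc16a1, Hk1, Hk2, Acot7, Rest, Zfp36l1 and Mgst1. They were the rows of the deposited gene count table that carry these symbols, 8 of 32531 rows, and their levels were compared between islets of control mice and islets of mice with β cell Notch activation. The best known members guard the link between glucose and insulin secretion. A β cell takes up glucose in proportion to its level in blood and sends the pyruvate made from it into mitochondria. Little high-affinity hexokinase keeps glycolysis from running at full rate when glucose is low, little lactate dehydrogenase A keeps pyruvate from becoming lactate, and little monocarboxylate transporter MCT1 keeps circulating pyruvate and lactate from entering the cell and triggering insulin release. Return of such genes is commonly read as a sign of lost β cell maturity, although islet RNA also holds the transcripts of α, δ, acinar, vascular and immune cells, in which many of these genes are active.

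Pancreatic islets from 4 control and 4 β-tetO-NICD mice were profiled by RNA-Seq, 1 library per mouse. Controls were RIP-Cre+, Rosa26-rtTA+ and tetO_NICD-. β-tetO-NICD mice were RIP-Cre+, Rosa26-rtTA+ and tetO_NICD+, and both groups drank doxycycline (Dox) for 8 weeks on a mixed background of C57BL/6J, 129X1/SvJ and BALB/c. Cre was driven by an insulin promoter, so rtTA, and with Dox the intracellular domain of Notch1 (NICD), were confined by design to cells in which that promoter had been active, while the sequenced RNA came from whole islets. Both groups carried Cre and rtTA and received Dox, so the groups share these agents and differ by label in the tetO-NICD transgene. Age is not given in the labels. The columns of β-tetO-NICD islets are numbered 1, 2, 4 and 5, and they are called NICD 1, NICD 2, NICD 4 and NICD 5 here. Values after ± are standard deviations (SD) over the 4 libraries of a group.

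Libraries held between 21701223 and 26413146 counts, and a floor of 3 counts corresponded to at most 0.151 CPM (TMM-normalized counts per 1e+06), which covers counting error only. Both checks of the transgene separated the groups. Notch1 ranged from 41.6 to 64.9 CPM in controls and from 573 to 1321 CPM in β-tetO-NICD islets, and the Notch target Hes1 from 6.00 to 8.50 and from 31.6 to 55.8 CPM, so every library matched its label. In controls 1, 2 and 4 and NICD 1, longer transcripts were relatively more abundant, and in control 3 and NICD 2, 4 and 5 relatively less (Spearman's rho of the deviation with transcript length, across genes, 0.418 to 0.497 and −0.521 to −0.173). The methods describe islets from males for expression work. The Y-linked gene Eif2s3y had 1300 or more counts in controls 2 and 4 and NICD 5, whereas each of the other 5 libraries had no more than 1. Ratios of group means within these splits are given for each member, although 3 of the 4 comparisons have an arm of 1 library. Summed α cell markers reached 11654 to 41440 CPM in controls and 53655 to 67266 CPM in the transgenic islets, and summed β cell markers 155125 to 196069 and 71957 to 171645 CPM, and in bulk islets fewer cells of a type and less RNA per cell cannot be told apart.

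Mgst1 rose in β-tetO-NICD islets, and it was the only one of the 8 disallowed genes with an adjusted p under 0.05 (edgeR quasi-likelihood F test, p values adjusted by Benjamini-Hochberg over 15082 tested genes). All 8 passed the filter on low counts. Across all tested genes, 6.76% passed this threshold (7.18% by limma-voom, 18.2% by DESeq2), made up of 4.19% that rose in β-tetO-NICD islets and 2.57% that fell, so 1 gene of 8 is no result about the list as a whole. Of the other 7, Acot7, Zfp36l1, Ldha, Slc16a1, Hk2 and Hk1 had small positive log2 fold changes between 0.11 and 0.55 and Rest had −0.05. Control and β-tetO-NICD libraries did not overlap for Mgst1 alone, against 16.1% of all tested genes, a share made up of 8.21% higher and 7.93% lower. The median log2 fold change was 0.20 over the 8 genes and 0.00071 over all tested genes. The share of all tested genes that passed moved with the libraries in the fit. It was 3.31%, 3.37%, 5.78% and 2.88% without controls 1, 2, 3 and 4, and 33.2%, 2.14%, 2.52% and 4.05% without NICD 1, 2, 4 and 5. With the length trend of the library as a batch term it was 4.03%, and 2.40% for genes that rose.

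**Figure D1:**
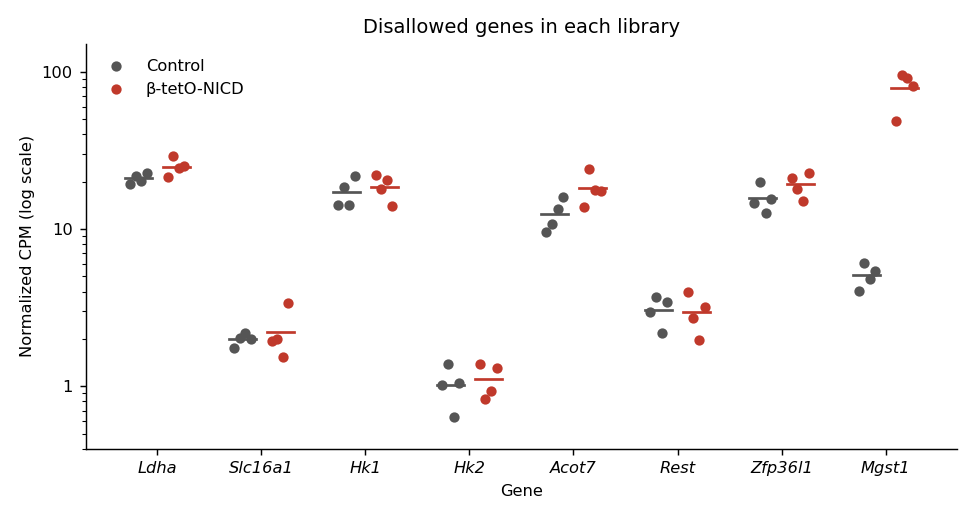
Normalized CPM on a log axis of the 8 disallowed genes, with 1 point per library and a line at the mean of 4 libraries for controls (grey) and β-tetO-NICD islets (red). Mgst1 separates completely, from 4.06 to 6.03 CPM in controls and from 48.8 to 95.1 CPM in β-tetO-NICD islets, whereas points of the 2 groups overlap for every other gene.

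**Figure D2:**
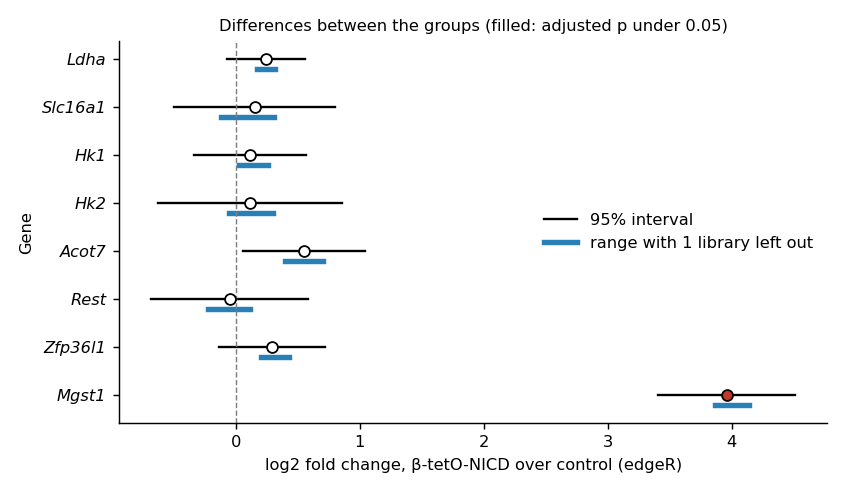
Log2 fold change of each disallowed gene (circle, filled where the adjusted p was under 0.05), its 95% interval (black line) and the range with 1 library left out at a time (blue bar). The interval of Mgst1 runs from 3.41 to 4.51, and those of all other genes except Acot7 include 0.

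Mgst1 (chromosome 6 of GRCm38, 138140316 to 138156755, + strand, ENSMUSG00000008540.11) encodes microsomal glutathione S-transferase 1, a membrane enzyme that conjugates glutathione to reactive electrophiles and reduces lipid peroxides. Its level was 4.06, 6.03, 4.82 and 5.43 CPM in controls 1 to 4, from 88, 143, 122 and 134 counts. It was 48.8, 95.1, 91.6 and 81.5 CPM in NICD 1, 2, 4 and 5, from 1028, 2178, 2760 and 1620 counts. The lowest β-tetO-NICD library was thus far above the highest control. The mean moved from 5.09 ± 0.846 CPM to 79.2 ± 21.1 CPM, which is 3.96 on the log2 scale with a standard error of 0.25 (edgeR adjusted p = 4.61e-05), or 15.6-fold with a 95% interval of 10.6-fold to 22.8-fold. Of all tested genes, 37, or 0.245%, had a log2 fold change at least this high, and 6 had a smaller p value.

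Promoter sequence from RefSeq (GRCm38.p6, 250 bases before to 50 after each annotated start) was matched by symbol for 7 of the 8 disallowed genes, in 10 windows. The letters GTGGGAA on either strand, a core bound by the Notch effector RBPJ, were in 6.38% of all 32851 windows and in none of the 10. The letters TGACNNNGC on either strand, the core of the antioxidant response element, were in 12.4% of all windows and in 3 of the 10, 1 each of Mgst1, Slc16a1 and Hk1. The 3 matches are shown because 1 lies at the gene that rose and the others at genes that did not pass. Each is given 5′ to 3′ on the strand of its gene, with the matching letters in capitals and 10 bases on each side.
Mgst1, chr6:138140461-138140489, + strand: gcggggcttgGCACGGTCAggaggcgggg
Slc16a1, chr3:104638447-104638475, + strand: gggccgcggcGCCGGGTCAcgtggcggga
Hk1, chr10:62340412-62340440, − strand: ccaccacgcgTGACCGCGCgctccttacg
The match at Mgst1 begins 56 bases before the RefSeq start and lies inside an exon that GENCODE (release M21) annotates as 5′ UTR. The letters CACGNG, bound by Hes and other basic helix-loop-helix factors, were in 27.5% of all windows and in 4 of the 10, none of them of Mgst1, and 1 of the matches at Slc16a1 and those at Hk1 overlap or adjoin the sequences in capitals. A match describes letters only, and no binding was measured.

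NICD 1 was the lowest of the β-tetO-NICD libraries in Mgst1, at 48.8 CPM. The order of Mgst1 within β-tetO-NICD islets was not that of Notch1, which was lowest in NICD 5 (573 CPM) and stood at 1008 CPM in NICD 1. Mgst1 passed the threshold in all 8 leave-one-out fits, with log2 fold changes from 3.87 to 4.14. Within the libraries relatively rich in longer transcripts, the ratio of NICD 1 to the mean of 3 controls was 9.43, and within those relatively poor in them the ratio of the mean of 3 β-tetO-NICD libraries to control 3 was 18.5. Within libraries with and without Eif2s3y counts, the ratios of means were 14.2 and 17.7. The genes whose log2 CPM followed that of Mgst1 most closely over the 8 libraries were Iyd, an iodotyrosine deiodinase gene, the keratin gene Krt25 and the glypican gene Gpc3 (Pearson's r 0.998, 0.996 and 0.994), a description that rests mainly on the gap between the groups in these same libraries. Krt25 had 0 counts in every control and a mean of 0.736 CPM in β-tetO-NICD islets, so it passed the filter on low counts through the latter alone.

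Markers of other islet cell types were set beside Mgst1, because islets are mixtures. The mean of the summed α cell markers was 2.68-fold that of controls, with no overlap between groups, and 3 of 6 markers passed higher, Irx1 and Irx2 among them. That sum was mostly the glucagon gene Gcg, with means of 22639 and 61207 CPM (edgeR adjusted p = 0.0622), and Slc7a2 had a log2 fold change of −0.55. The mean sum was 2.69-fold for δ cell markers, mostly the somatostatin gene Sst (edgeR adjusted p = 0.0619), with 1 of 4 passing (Hhex). The leukocyte sum was 1.96-fold, again without overlap, with 2 of 9 passing. These were Cd74, an MHC class II chaperone gene, from 121 to 320.3 CPM, and the complement gene C1qa, from 77.6 to 150.2 CPM. C1qb, C1qc and Ptprc had log2 fold changes of 0.75, 0.41 and 0.32 and did not pass. Adgre1, Cd68, Csf1r and Lyz2 had log2 fold changes from −0.38 to 0.09. The mean sum was 1.36-fold for acinar, 1.17-fold for duct, 1.13-fold for mesenchymal and 1.06-fold for endothelial markers, none of whose genes passed. For β cell markers it was 0.665-fold, and Ucn3 and Slc2a2 passed lower. Of the duct list, 1 marker gene had 0 counts in at least 1 library, and no marker of any other list did. The highest sum of any list in a β-tetO-NICD library was 3.64 times its control mean, for δ cell markers in NICD 2. Mgst1 reached between 9.60 and 18.7 times its control mean. A summed level does not bound the change of a single gene. The part of α, δ and leukocyte RNA in the values of the 8 genes was not tested. With the acinar or the duct marker score as a covariate, Mgst1 still passed. Both of these sums overlapped between the groups, and no α, δ or leukocyte score was fitted. These fits therefore say nothing about the cell types whose markers differed.

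**Figure D3:**
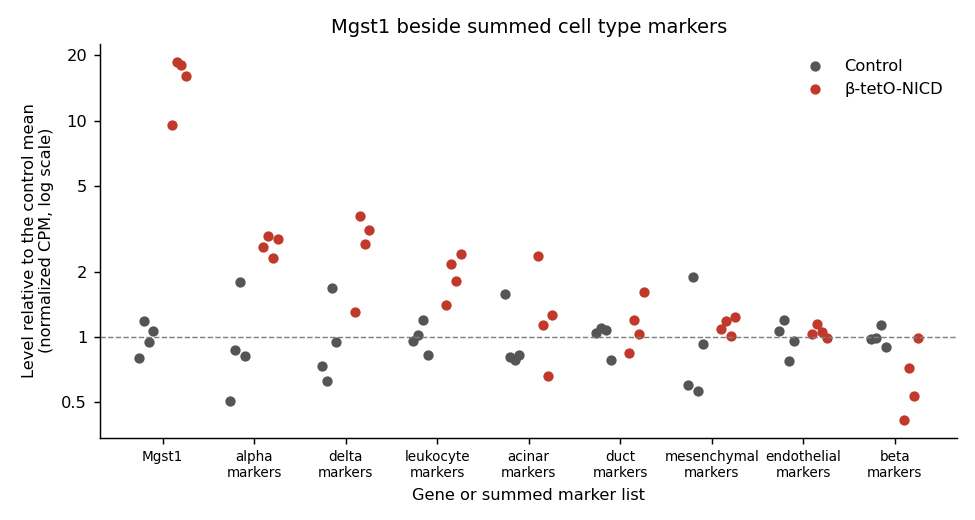
Level of Mgst1 and of summed marker genes for 8 cell types in each library, relative to the mean of the 4 controls (log axis, dashed line at 1), with controls in grey and β-tetO-NICD islets in red. Mgst1 in β-tetO-NICD islets lies between 9.60 and 18.7 times its control mean, and no marker sum exceeds 3.64 times. The part of these cell types in the level of Mgst1 was not tested.

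Mgst1 was also set beside its relatives. Per base of the longest annotated transcript, it made up 24.9% to 32.2% of the summed Mgst1, Mgst2 and Mgst3 level in controls and 78.3% to 84.7% in β-tetO-NICD islets. Mgst3, a related glutathione peroxidase, had means of 11.0 ± 2.26 and 17.0 ± 5.72 CPM in control and transgenic islets (log2 fold change 0.62, edgeR adjusted p = 0.149), and Mgst2 was under 1.5 CPM in every library. None of the 7 tested relatives of Mgst1 and Zfp36l1 passed with edgeR, with limma-voom or with DESeq2, and 1 had an unadjusted edgeR p under 0.05, where 31.6% of all tested genes did.

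Ldha (chromosome 7, 46841475 to 46855627, + strand) encodes the A subunit of lactate dehydrogenase, which converts pyruvate to lactate. It was at 19.2, 21.8, 20.2 and 22.8 CPM in controls 1 to 4 and at 21.3, 28.9, 24.5 and 25.1 CPM in NICD 1, 2, 4 and 5. Only NICD 1 fell within the range of controls. The means were 21.0 ± 1.61 CPM and 24.9 ± 3.11 CPM, and the log2 fold change of 0.25 did not pass (standard error 0.14, edgeR adjusted p = 0.245). Its 95% interval, 0.953-fold to 1.47-fold, leaves out an increase of the size seen for Mgst1. The sign turned to −0.06 with an offset for transcript length. Within the libraries relatively rich and relatively poor in longer transcripts the ratios were 1.002 and 1.29, and within those with and without Eif2s3y counts 1.12 and 1.26. Mouse Ldha has annotated pseudogene copies, and pseudoalignment could divide reads between near-identical sequences, so its level is less certain than its counts imply.

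Slc16a1 (chromosome 3, 104638668 to 104658462, + strand) encodes MCT1, the pyruvate and lactate importer. It was low in every library, at 1.75, 2.03, 2.18 and 1.99 CPM in controls and 1.95, 2.01, 1.53 and 3.37 CPM in NICD 1, 2, 4 and 5, from 38 to 67 counts. NICD 5 was the highest of all 8 and the other 3 lay within or below the controls. The log2 fold change was 0.15 (standard error 0.29, edgeR adjusted p = 0.736), with a 95% interval from 0.708-fold to 1.74-fold. Without NICD 5 it was −0.12, so the positive sign rests on that library. Among libraries with Eif2s3y counts the ratio of NICD 5 to the mean of 2 controls was 1.68, and among those without it the ratio of means was 0.931. By length trend the ratios were 1.01 and 1.06.

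The remaining genes of lactate and pyruvate handling showed no common direction. Of the 13 listed, 12 were tested and 2 passed, both lower, against 2.57% of all tested genes in this direction. Emb, which encodes embigin, an ancillary protein of monocarboxylate transporters, fell from 378 ± 41.4 to 225 ± 8.92 CPM (log2 fold change −0.74, edgeR adjusted p = 0.0157). Pcx, the gene of pyruvate carboxylase, which feeds pyruvate into mitochondrial anaplerosis, fell from 159 ± 17.9 to 88.2 ± 21.6 CPM (log2 fold change −0.85, edgeR adjusted p = 0.0357). Emb and Pcx passed in 5 and 3 of the 8 leave-one-out fits. With the length trend as a batch term Pcx kept a log2 fold change of −0.76 but not its call (edgeR adjusted p = 0.0961). With an offset for transcript length Pcx was at −0.74 and passed (edgeR adjusted p = 0.0215). The count for the list was 1 without control 1 or control 2, 0 without control 4 or NICD 2 or NICD 4, and 4 without NICD 1, fits in which 3.31%, 3.37%, 2.88%, 2.14%, 2.52% and 33.2% of all tested genes passed. Ldhb, the gene of the other common lactate dehydrogenase subunit, had a log2 fold change of 0.05 (edgeR adjusted p = 0.885), and Ldha made up 48.0% to 54.3% of the Ldha and Ldhb level per base in controls and 45.1% to 59.8% in β-tetO-NICD islets. The other transporter genes Slc16a3 and Slc16a7 had log2 fold changes of 0.54 and −0.05 (edgeR adjusted p = 0.319 and 0.933).

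Hk1 and Hk2 encode high-affinity hexokinases, which would phosphorylate glucose already at fasting levels. Hk1 (chromosome 10, 62268855 to 62379908, − strand) was at 14.1, 18.5, 14.2 and 21.9 CPM in controls and 21.9, 17.8, 20.5 and 14.0 CPM in NICD 1, 2, 4 and 5. The 2 groups spanned almost the same range. The log2 fold change was 0.11 (standard error 0.20, edgeR adjusted p = 0.716), with an interval from 0.791-fold to 1.48-fold. In libraries with Eif2s3y counts the ratio of NICD 5 to the mean of 2 controls was 0.693, and in those without it the ratio of means was 1.42. By length trend the ratios were 1.21 and 1.23.

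Hk2 (chromosome 6, 82725025 to 82774454, − strand) was the least abundant member, with 16 to 33 counts per library. It was at 1.01, 1.39, 0.633 and 1.05 CPM in controls and 1.38, 0.8292, 0.929 and 1.31 CPM in NICD 1, 2, 4 and 5, which all fell inside the control range. Its log2 fold change was 0.11 (standard error 0.33, edgeR adjusted p = 0.828), with an interval from 0.646-fold to 1.81-fold. By length trend the ratios were 1.19 and 1.62, and by Eif2s3y counts 1.07 and 1.27. The sign was −0.06 without control 3 and −0.0040 without NICD 1. Genes on the opposite strand overlap Hk1, Hk2, Acot7 and Zfp36l1 in the GENCODE annotation, and whether counting used strand is not given in the sources used here.

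Of 12 genes listed for glucose transport and phosphorylation, 11 were tested and 3 passed, all lower, where 2.57% of all tested genes passed in this direction. They were G6pc2, the islet glucose-6-phosphatase catalytic subunit, which turns glucose-6-phosphate back into glucose, and the glucose transporter genes Slc2a2 and Slc2a1, with log2 fold changes of −2.41, −1.80 and −1.06 (edgeR adjusted p = 0.000138, 0.0331 and 0.0202). G6pc2 passed in all 8 leave-one-out fits, Slc2a1 in 5 and Slc2a2 in 2. With the length trend as a batch term Slc2a1 kept a log2 fold change of −1.03 but not its call (edgeR adjusted p = 0.0603). With an offset for transcript length Slc2a1 was at −1.08 and passed (edgeR adjusted p = 0.0102). Only 1 of the list passed without control 2, without control 4 or without NICD 2, where 3.37%, 2.88% and 2.14% of all tested genes passed. Without NICD 1, 3 passed, in a fit in which 33.2% of all tested genes passed.

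Acot7 (chromosome 4, 152178134 to 152271855, + strand) encodes a cytosolic acyl-CoA thioesterase that splits long-chain acyl-CoA into free fatty acid and CoA. It was at 9.54, 10.8, 13.4 and 16.0 CPM in controls 1 to 4 and at 13.8, 24.0, 17.7 and 17.3 CPM in NICD 1, 2, 4 and 5. NICD 1 lay within the controls and the other 3 above them. The means were 12.4 ± 2.88 and 18.2 ± 4.25 CPM, and the log2 fold change of 0.55 had the lowest p among the 7 members that did not pass (standard error 0.22, edgeR adjusted p = 0.131). Its 95% interval, from 1.04-fold to 2.06-fold, is not corrected for the number of genes. Without NICD 1 the log2 fold change was 0.67 and passed (adjusted p = 0.0392), in a fit in which 33.2% of all tested genes passed. With an offset for transcript length it was 0.18 (adjusted p = 0.560). Within the libraries relatively rich and poor in longer transcripts the ratios were 1.14 and 1.47, and with and without Eif2s3y counts 1.29 and 1.61.

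Of 11 other acyl-CoA thioesterase genes, all tested, Acot11 alone passed, which is 9.09% of the list against 6.76% of all tested genes. It fell from 43.2 ± 1.84 to 29.4 ± 3.20 CPM (log2 fold change −0.56, edgeR adjusted p = 0.0322), and it passed in 1 of the 8 leave-one-out fits, the one without NICD 1, in which 3 of the list and 33.2% of all tested genes passed. An offset for transcript length brought Acot11 to −0.27 on the log2 scale, short of the threshold (edgeR adjusted p = 0.290). With the length trend as a batch term Acot11 was at −0.58 and passed (edgeR adjusted p = 0.0448). No gene of the list passed in the other 7 of those fits, where between 2.14% and 5.78% of all tested genes did. Libraries of the 2 groups did not overlap for 4 of the 11, 2 with higher and 2 with lower levels in the transgenic islets, where 8.21% and 7.93% of all tested genes did so.

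Rest (chromosome 5, 77265491 to 77286432, + strand) encodes a repressor that silences neuronal genes in most tissues, and its absence lets β cells express part of the neuronal exocytosis machinery. It was at 2.95, 3.67, 2.18 and 3.41 CPM in controls and 3.99, 2.71, 1.96 and 3.17 CPM in NICD 1, 2, 4 and 5, from 55 to 87 counts, with the highest and the lowest library both in β-tetO-NICD islets. The log2 fold change was −0.05 (standard error 0.28, edgeR adjusted p = 0.915), with an interval from 0.623-fold to 1.5-fold. The sign changed with the processing, to 0.34 with an offset for transcript length and 0.02 with upper-quartile normalization. Within the libraries relatively rich and relatively poor in longer transcripts the ratios were 1.193 and 1.201, and within those with and without Eif2s3y counts 0.896 and 1.13.

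None of 11 genes of REST cofactors passed with edgeR or limma-voom. With edgeR 1 had an unadjusted p under 0.05, as did 31.6% of all tested genes. With DESeq2 1 passed, where 18.2% of all tested genes did, and without NICD 1 edgeR passed 4, where it passed 33.2% of all tested genes. Of 24 neuroendocrine genes commonly named as REST targets, all tested, 1 passed and was lower, which is 4.17% of the list against 6.76% of all tested genes. This was Disp2, of the Dispatched family of membrane proteins, from 645 ± 99.6 to 325 ± 88.2 CPM (log2 fold change −0.99, edgeR adjusted p = 0.0357). With the length trend as a batch term Disp2 was at −0.81 on the log2 scale and did not pass (edgeR adjusted p = 0.0970). With an offset for transcript length Disp2 was at −0.65 and passed (edgeR adjusted p = 0.0425). The median log2 fold change of the 24 was −0.18, against −0.09 with the batch term and 0.0029 over 23 genes with the offset. Without NICD 1, 8 of the 24 passed, a share close to the 33.2% of all tested genes in that fit, whereas none did without control 1, control 2 or control 4 or without NICD 2 or NICD 4, where between 2.14% and 3.37% of all tested genes passed.

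Zfp36l1 (chromosome 12, 80107754 to 80113013, − strand) encodes an RNA-binding protein that directs mRNAs with AU-rich elements to decay. It was at 14.7, 19.96, 12.7 and 15.5 CPM in controls and 21.1, 17.9, 15.0 and 22.7 CPM in NICD 1, 2, 4 and 5. NICD 1 and NICD 5 lay above all controls and the other pair within them. The log2 fold change was 0.29 (standard error 0.19, edgeR adjusted p = 0.306), with an interval from 0.908-fold to 1.64-fold, and it was positive in each of the 22 alternative fits, although not relative to Ppia, as given below. By length trend the ratios were 1.26 and 1.46, and by Eif2s3y counts 1.28 and 1.31. Its relatives Zfp36 and Zfp36l2 had log2 fold changes of 0.20 and 0.37 (edgeR adjusted p = 0.463 and 0.163).

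The sign of the small differences also depended on what they were measured against. Relative to Ppia, the invariant control gene of the study's quantitative PCR, the log2 difference was −0.25 for Ldha, −0.39 for Slc16a1, −0.37 for Hk1, −0.35 for Hk2 and −0.20 for Zfp36l1, all positive by TMM, and 0.06 for Acot7 and −0.55 for Rest. For Mgst1 it was 3.44 (p = 0.0286 from a two-sided exact permutation test, the lowest value that 4 against 4 libraries can give). For the other 7 the exact permutation p values lay between 0.114 and 0.886. Ppia itself averaged 268 ± 34.3 and 391 ± 136 CPM in control and transgenic islets (log2 fold change 0.54, edgeR adjusted p = 0.161).

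Levels were compared between genes as RPKM, normalized CPM per kilobase of the longest annotated transcript. In controls the order was Ldha (11.6 ± 0.885), Acot7 (8.25 ± 1.91), Zfp36l1 (5.25 ± 1.03), Mgst1 (4.36 ± 0.725), Hk1 (4.02 ± 0.873), Slc16a1 (0.448 ± 0.0396), Rest (0.436 ± 0.0936) and Hk2 (0.186 ± 0.0564). Ranges over libraries overlapped between each neighbouring pair except Hk1 and Slc16a1, and Rest and Hk2. Slc16a1, Rest and Hk2 thus formed a low group, with a mean RPKM above only 11.1%, 10.8% and 3.77% of tested genes, while Ldha stood above 72.4% of them. In β-tetO-NICD islets Mgst1 came first at 67.9 ± 18.1 RPKM, above 95.5% of tested genes against 45.2% in controls, and the means of the other 7 stood in the same order as in controls.

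Of a further 21 genes named as disallowed in islets, all tested, 6 passed, all higher. That is 28.6% of the list, against 4.19% of all tested genes that passed in this direction. This list, like the others, was chosen with earlier results of these data known, so its share is a description only. The 6 genes differ in function. Tst, the gene of the mitochondrial sulfurtransferase rhodanese, rose from 4.36 ± 0.623 to 31.1 ± 8.71 CPM, a log2 fold change of 2.84 (standard error 0.24, edgeR adjusted p = 0.000194). Igfbp4, which encodes a secreted binding protein of insulin-like growth factors, and Smad3, a transcription factor gene of TGF-β signaling, had log2 fold changes of 1.29 and 1.28 (edgeR adjusted p = 0.0278 and 0.0117). Lmo4, which encodes a LIM-domain transcriptional cofactor, Cat, the gene of catalase, and Selenbp1, the gene of a selenium-binding protein, had log2 fold changes of 1.14, 0.77 and 0.67 (edgeR adjusted p = 0.0154, 0.0168 and 0.0453).

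Of these 6, Tst and Smad3 passed in all 8 leave-one-out fits, whereas Lmo4 passed in 5, Cat in 4, Igfbp4 in 2 and Selenbp1 in 1. Only 2 of the list passed without control 4, without NICD 2 and without NICD 4, where 2.88%, 2.14% and 2.52% of all tested genes passed. Without NICD 1, 8 of the 21 passed, in a fit in which 33.2% of all tested genes passed. With an offset for transcript length 5 passed, without Selenbp1, where 795 of 14655 tested genes passed higher. With the length trend of the library as a batch term 3 passed, namely Tst, Smad3 and Cat, where 2.40% of all tested genes passed higher. Igfbp4, Lmo4 and Selenbp1 then had log2 fold changes of 1.07, 0.96 and 0.69 (edgeR adjusted p = 0.126, 0.0594 and 0.0914). The other 15 had log2 fold changes from −0.16 to 0.91. The median was 0.51 over the 21 genes and 0.00071 over all tested genes. Several of these genes are also active in mesenchymal, endothelial or immune cells. The α, δ and leukocyte marker sums averaged 2.68, 2.69 and 1.96 times those of controls, with 3 of 6, 1 of 4 and 2 of 9 markers passing higher. The part of any cell type in the levels of the 21 genes was not tested.

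**Figure D4:**
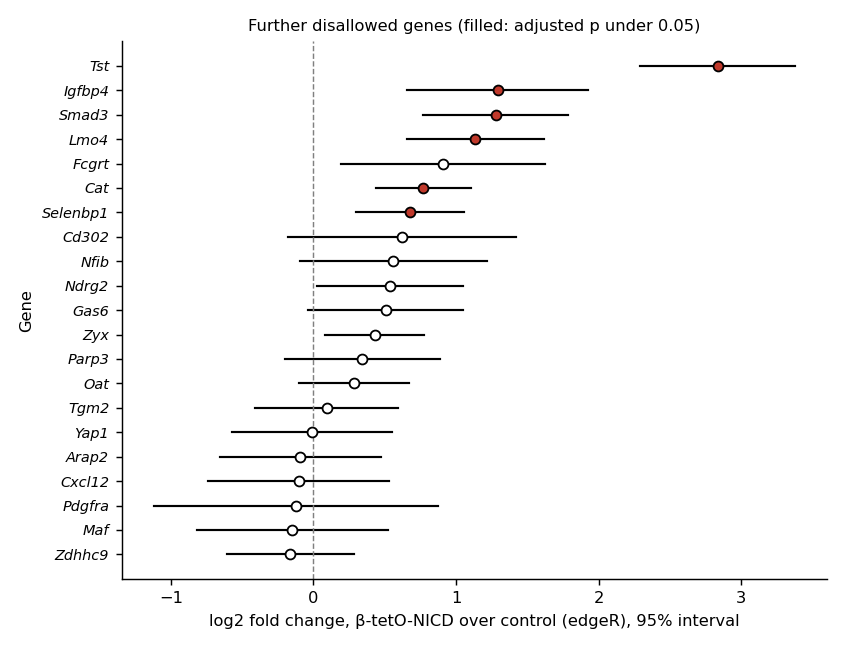
Log2 fold change, β-tetO-NICD over control, of 21 further genes named as disallowed in islets, with 95% intervals; filled circles had an adjusted p under 0.05. Tst lies apart at 2.84, followed by Igfbp4, Smad3 and Lmo4 between 1.14 and 1.29, and no gene that passed was lower.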

How the data were processed

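Islet mRNA of 4 control and 4 β-tetO-NICD mice was sequenced from stranded libraries. The authors quantified reads with Kallisto against a GRCm38 transcriptome and deposited counts per gene symbol, not normalized. The Kallisto version and the annotation release are not given in the sources used here. Pseudoalignment can divide reads between near-identical transcripts, and strandedness of the counting was not stated. A deposited limma comparison (log2 fold changes, mean expression, t statistics, p-values, adjusted p-values, B statistics and −log10 p) was not used.

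Of 32531 genes, 15082 reached 10 counts in 4 or more of the 8 libraries and were tested with edgeR 4.0.16 (quasi-likelihood test, TMM normalization, Benjamini-Hochberg adjustment over all tested genes, threshold 0.05) in R 4.3.3. Totals were 21701223 to 26413146 counts. The standard error is the log2 fold change divided by the square root of its F statistic, and intervals are 95% intervals of the same fit. Alternatives were limma-voom (limma 3.58.1), DESeq2 1.42.0, other normalizations and filters, covariates, an offset for transcript length, a replicate block and leaving out each library. The batch term and splits by length trend, values within Eif2s3y libraries, the duct score covariate and the ratio to Ppia were added after the data had been seen. Transcript lengths came from GENCODE M21 and promoters from RefSeq.

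The members and gene lists were chosen with earlier results of these data known. Text names all members, Notch1, Hes1, the genes of each list that passed (at most 6), direct relatives of a member (some are not reported here) and the 3 genes most like Mgst1. Groups came from the labels. The columns of β-tetO-NICD libraries 4 and 5 could be assigned to the group but not to a single labelled mouse. No 2 libraries were duplicates (chi-square per gene at least 31.5).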

Additional observations from a re-analysis of the deposited data

Results flagged for a closer look

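The summed level of 12 acinar markers was far higher in control 1 than in the other controls, at 79862 CPM against 39777 to 41925 CPM, and the gap to the nearest library took up 0.946 of the group's range. The summed level of 8 duct markers was far lower in control 4 than in the other controls, at 230.1 CPM against 309 to 323 CPM, with a gap of 0.846 of the range. Both exceed Dixon's critical value for 4 libraries. Among the 32 groups examined chance alone gives about 1.6 such gaps, and none of the 8 disallowed genes had one in either group. The highest acinar sum of all 8 libraries was that of NICD 1, at 120420 CPM, whose gap within its group was not flagged. NICD 1 also had the lowest summed β cell markers, at 71957 CPM. With the acinar or the duct score as a covariate Mgst1 still passed.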

How the results depend on the processing

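Mgst1 kept its direction and passed in all 22 alternative fits, with log2 fold changes from 3.52 to 4.15, and Notch1 and Hes1 passed in every fit that left out 1 library (4.04 to 4.38 and 2.48 to 2.74). With 1 library left out, ranges were 3.87 to 4.14 for Mgst1, 0.39 to 0.70 for Acot7, 0.17 to 0.32 for Ldha, 0.03 to 0.25 for Hk1, 0.20 to 0.43 for Zfp36l1, −0.12 to 0.30 for Slc16a1, −0.060 to 0.30 for Hk2 (−0.0040 without β-tetO-NICD library 1) and −0.23 to 0.11 for Rest (0.05 without control 2, 0.01 without control 4). Acot7 passed only without β-tetO-NICD library 1 (0.67), where 2 disallowed genes passed in place of 1 and 33.2% of all tested genes passed. Signs turned for Ldha with the length offset (−0.057), for Slc16a1 in libraries without Eif2s3y counts (−0.10), and for Rest with upper-quartile normalization (0.024), the length offset (0.34), the Eif2s3y covariate (0.051), libraries without Eif2s3y counts (0.17) and the length-trend batch term (0.26). Relative to Ppia they turned for Ldha (−0.25), Slc16a1 (−0.39), Hk1 (−0.37), Hk2 (−0.35) and Zfp36l1 (−0.20). The cause of these turns was not tested.

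Genes passing in the lists, with 1 library left out, ranged from 2 to 8 for further disallowed genes, 0 to 4 for lactate and pyruvate, 1 to 3 for glucose, 0 to 3 for thioesterases, 0 to 4 for REST cofactors, 0 to 8 for REST targets and 0 to 1 for ZFP36 and MGST relatives. Each upper end was reached without β-tetO-NICD library 1, where 33.2% of all tested genes passed. In the other leave-one-out fits the share was 2.14% to 5.78%. DESeq2, which passed 18.2% of all tested genes, gave 4 for lactate and pyruvate, 2 for thioesterases, 1 for REST cofactors and 3 for REST targets. Upper-quartile normalization, which passed 1158 of 15082 genes, gave 0 for thioesterases. Over all genes, 1020 passed with edgeR, 2739 with DESeq2, 4954 without β-tetO-NICD library 1, and 104 in the 5 libraries without Eif2s3y counts. Upper-quartile normalization gave 819 higher and 339 lower, against 632 and 388. Numbers 1, 2 and 4 occur in both groups. Number 4 was left out, because the β-tetO-NICD column with that number could not be assigned to a single labelled mouse. Deviations of the libraries numbered 1 and of those numbered 2 correlated at 0.276 and −0.0901 across genes. The numbers were thus not shown to pair the samples. With the replicate block on those 4 libraries 518 genes passed, Mgst1 among them, and log2 fold changes turned for Hk2 (−0.14) and Rest (0.0036). Hk2, Slc16a1 and Rest had the fewest counts, 16 to 87 per library. Counting error and spread between mice were not separated for them.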
